A study of Mus musculus with 6 samples.

Results

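Axon guidance ligands and receptors were examined in the ganglion cell layer of the mouse retina 6 hrs after optic nerve crush. The semaphorins, plexins, ephrins, Eph receptors, Slits, Robos, netrins and Unc5 receptors were taken by their gene symbols on the platform, together with the neuropilins Nrp1 and Nrp2 and the netrin receptors Dcc and Neo1. Of 45101 probe sets on the array 163 carried such a symbol, and they stood for 72 genes. For each gene the brightest probe set, by its mean over 6 arrays, was used if that mean was at least 40, which left 65 genes of the 15103 that passed the same limit. One of the 65 is Plxna4os1, an antisense RNA of a plexin gene, and the others code for 34 ligands and 30 receptors. The 7 genes under the limit were Epha2 (mean 5.82), Ntng2 (21.7), Plxnd1 (25.2), Slit3 (26.1), Plxnb3 (35.5), Robo3 (36.4) and Ntn3 (39.2), and the dimmest gene above it was Ephb6 at 48.4. No gene passed through 1 group alone, since each of the 65 had a mean of at least 40 in the crush eyes and in the control eyes. Ephb2 was not analysed here.

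The crush group held 3 eyes whose optic nerve was crushed with forceps for 10 sec, and the control group held the 3 uninjured contralateral eyes of the same animals. All were from male C57BL/6J mice, and no transgene or other treatment is named. About 6000 cells of the ganglion cell layer were collected from each eye by laser capture, their RNA was amplified, and each eye had 1 array. Values are linear signal intensities in arbitrary units, and each probe set has its own scale. Differences were therefore read only between eyes, for the same probe set or for a sum over the same markers. Such a sum follows its brightest probe sets most.

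The arrays had median intensities of 131 to 154. Crush eye 2 gave an array unlike the rest, which was lower than every other array by more than 1 on the log2 scale for 1331 probe sets, against 4 to 57 on the others, and the array of crush eye 3 was higher by as much for 255, against 2 to 27. Of the 65 guidance genes 20 (30.8%) were lowest on crush eye 2, against 34.6% of all probe sets tested, and 20 (30.8%) were highest on crush eye 3, against 29.2%. The 11 measured markers of retinal ganglion cells, among them Pou4f1, Nefl and Thy1, summed to 53581 to 67277 in crush eyes and 60042 to 61419 in control eyes. Of these 5 had a log2 difference above 0 and 6 below, with a median of −0.02. Markers of other retinal cells were present as well. The 6 rod markers, all above 0, summed to 35052 to 41658 in crush eyes and 25393 to 46181 in control eyes, and the 4 bipolar cell markers, all below 0, to 3533 to 4587 in crush eyes and 4969 to 6117 in control eyes. The 5 measured pigment epithelium markers summed to 8997 to 14735 in crush eyes and 8297 to 8558 in control eyes, with 2 above 0, 3 below and a median of −0.01. The 2 above 0 were Ttr and Lrat, and neither had overlapping groups. Ttr ran between 1733 and 7355 in crush eyes and between 493 and 948 in control eyes. Lrat ran between 252 and 441 in crush eyes and between 188 and 242 in control eyes. Rlbp1, which Müller cells also express, ran between 6032 and 7561 in crush eyes and between 6766 and 7478 in control eyes. Rpe65, a defining marker of the pigment epithelium, did not exceed 10.2 on any array. The endothelial marker Tie1 did not exceed 2.46, although Flt1, of the same cells, had a mean of 4530. So dim a probe set does not show that a cell type was absent. Markers below 0 were 7 of 8 for amacrine cells and 6 of 7 for Müller cells (median −0.22). They were 5 of 6 for pericytes and smooth muscle and 4 of 4 for lens. The lens markers summed to 701 to 5844 in crush eyes and 1226 to 7647 in control eyes. Their median was −0.39, −2.43 and 0.01 in pairs 1, 2 and 3. Markers above 0 were 4 of 5 for astrocytes, 4 of 6 for endothelial cells and 5 of 6 for microglia. At an unadjusted p under 0.05 in limma, 2 astrocyte and 2 pigment epithelium markers were higher. By the same criterion 1 marker each of Müller cells, bipolar cells and lens was lower, and no marker of the other types passed. The part of these cells in the guidance genes was not tested, and fewer cells of a type and less RNA per cell cannot be told apart in captured tissue.

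Guidance ligands are secreted or membrane-bound proteins that steer growing axons, and their receptors sit on the growth cone. Semaphorins act through plexins, with neuropilins as co-receptors for the secreted class 3. Ephrins bind Eph receptors on the neighboring cell and order the map of ganglion cell axons in the brain, Slits repel axons through Robo receptors, and netrin-1 draws ganglion cell axons out of the eye through Dcc and repels axons through Unc5 receptors. Many of these genes remain expressed in the adult retina.

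The question was whether the crush changed these genes within hours of injury. Differences are given on the log2 scale as crush minus control, from a paired limma fit over 33169 probe sets, with intensities under 16 set to 16. No guidance gene passed an adjusted p (Benjamini-Hochberg) under 0.05, and neither did any other probe set, the smallest adjusted p being 0.642. At an unadjusted p under 0.05 limma called 5 of the 65 genes, or 7.69%, against 5.03% of all genes. Epha10, Unc5a and Plxna2 were higher in crush eyes and Ntn1 and Epha3 were lower, while 2.76% of all genes were higher and 2.27% lower by this criterion. The split of 3 higher and 2 lower depended on the scaling between arrays, being 1 and 5 with each array set to the same median and 4 and 4 after quantile normalization. In both directions together these were 9.23% of the guidance genes with the same median, against 6.64% of all genes, and 12.3% after quantile normalization, against 6.34%. A gene was the same way in all 3 pairs of eyes in 10 cases above 0 (15.4%, against 15.2% of all genes) and 8 cases below (12.3%, against 15.0%). The crush and control eyes did not overlap for 7 genes that were higher in crush eyes (10.8%, against 5.69% of all genes) and 4 that were lower (6.15%, against 5.32%). The thresholds of the study ask for a fold over 1.2, an intensity difference over 80 and p under 0.05. With the p of limma they called 1 of the 65 genes at its brightest probe set, Plxna2, which was higher. Of all genes 1.50% were called higher and 0.695% lower. Over all tested probe sets of guidance genes 5 met these thresholds, from Neo1, Nrp1 and Plxna2, which were higher, and Sema3e, which was lower. Plxna2 and Ntn4 are also in the list of changed genes that the study drew from these same samples, so their values here are not independent evidence. Ntn4 did not pass here, at 0.09 (unadjusted p = 0.607 from limma) for its brightest probe set and −0.25 (unadjusted p = 0.611 from limma) for its other tested one.

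**Figure D1:**
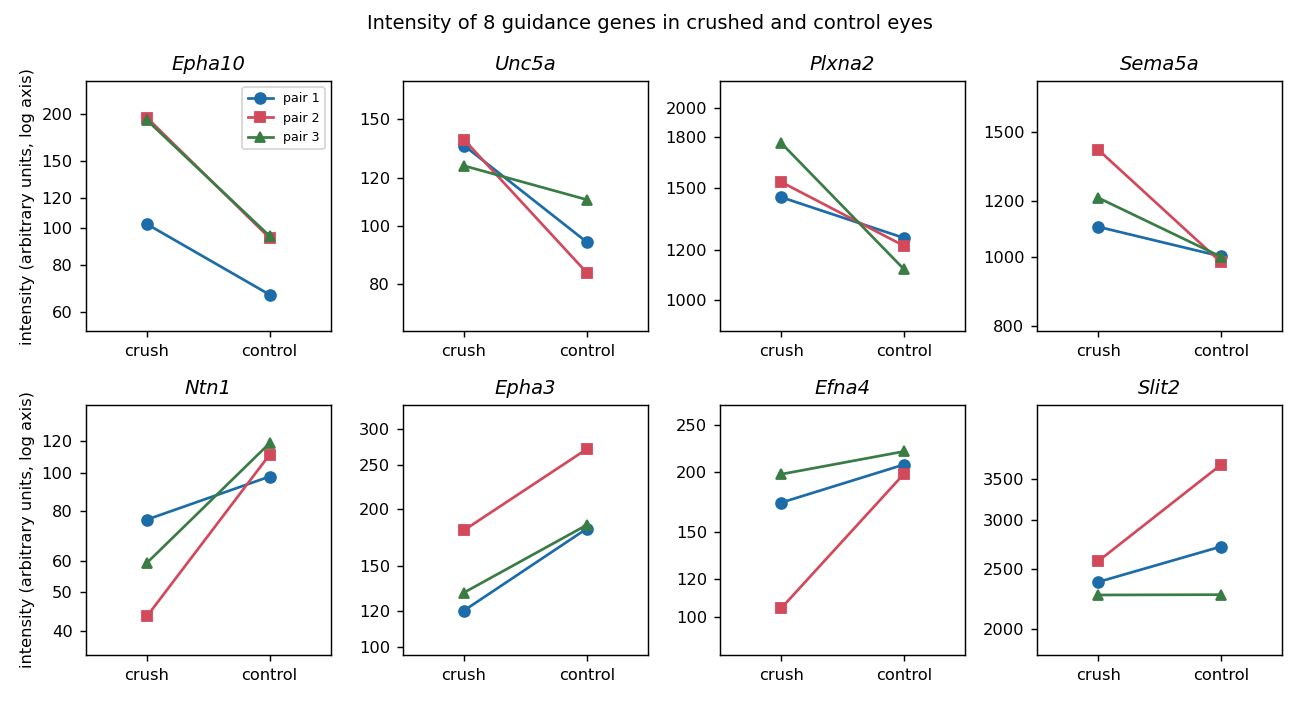
Intensity in each eye (arbitrary units, log axis) of 8 guidance genes, crush eyes left and control eyes right, with a line for each pair. Epha10, Unc5a and Plxna2 are higher and Ntn1 and Epha3 lower in every crush eye than in any control eye, the groups of Sema5a and Efna4 do not overlap either, and those of Slit2 do.

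The EphA receptors held the guidance gene with the smallest p and the largest positive difference. Epha10, an EphA receptor that lacks kinase activity, had 102, 196 and 193 in crush eyes 1, 2 and 3, against 66.6, 94.1 and 95.2 in control eyes 1, 2 and 3. Every crush eye lay above every control eye, and the lowest crush eye was the partner of the lowest control eye. The log2 difference was 0.90 (SE 0.16, 95% interval 0.50 to 1.30, n = 3 pairs, unadjusted p = 0.00199 and adjusted p = 0.642 from limma), a ratio of 1.87 with an interval of 1.41 to 2.46. Epha10 had a single tested probe set. It kept an unadjusted p under 0.05 without any one pair, at 0.82 to 1.04.

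Epha3, a receptor for ephrin-A ligands, had 120.1, 180.0 and 132 in crush eyes, against 181, 271 and 185 in control eyes. All crush eyes lay below all control eyes, and the differences of the 3 pairs were close to each other at −0.59, −0.59 and −0.49. The log2 difference was −0.56 (SE 0.13, interval −0.90 to −0.22, unadjusted p = 0.00796 and adjusted p = 0.642 from limma), a ratio of 0.68. Without pair 1 it was −0.54 with an unadjusted p of 0.0559. The second probe set of Epha3, which was dimmer, had 33.8, 59.6 and 78.1 in crush eyes and 40.4, 50.9 and 43.6 in control eyes, a log2 difference of 0.27 (SE 0.24) with overlapping groups, and with the mean of both probe sets the gene stood at −0.14.

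The sequences before the starts of these 2 receptors are shown because they were the EphA genes with opposite differences. They are the 250 bases upstream of the start in the RefSeq annotation of GRCm38.p6, 5′ to 3′ on the strand of the gene, at chr4:124881535-124881784 (plus strand) for Epha10 and chr16:63864176-63864425 (minus strand) for Epha3. Capitals mark matches, on either strand, to an AP-1 site (TGANTCA), a STAT site (TTCNNNGAA), a GC box (GGGCGG) or a CCAAT box (CCAAT), and no match overlaps another.
Epha10: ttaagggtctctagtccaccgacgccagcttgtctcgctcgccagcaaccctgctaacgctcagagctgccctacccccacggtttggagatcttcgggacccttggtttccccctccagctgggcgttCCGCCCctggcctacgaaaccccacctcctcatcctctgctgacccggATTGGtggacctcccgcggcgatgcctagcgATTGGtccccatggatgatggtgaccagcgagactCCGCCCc
Epha3: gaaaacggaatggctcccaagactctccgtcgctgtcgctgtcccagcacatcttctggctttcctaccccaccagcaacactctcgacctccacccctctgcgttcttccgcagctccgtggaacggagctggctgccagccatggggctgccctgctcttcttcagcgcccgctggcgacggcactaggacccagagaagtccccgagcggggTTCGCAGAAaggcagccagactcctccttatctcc
The Epha10 window holds 2 GC boxes and 2 CCAAT boxes, all on the reverse strand, and neither of the other motifs. The Epha3 window holds 1 match to the STAT letters and none to the others. Of 32851 promoter windows of the same length in the RefSeq annotation used, 6.749% hold the AP-1 letters, 7.02% the STAT letters, 32.74% a GC box and 33.85% a CCAAT box. These matches describe the letters only. A promoter entry was found for 54 of the 65 genes.

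Of the other 6 EphA receptors measured none passed an unadjusted p under 0.05, and the 8 together had a median of −0.15 with 3 above 0. Epha5, which is graded across the ganglion cells of the retina, had 2153, 1713 and 1858 in crush eyes and 1708, 1791 and 1513 in control eyes (0.19, SE 0.15). Crush eye 2 fell within the range of the control eyes. Among genes singled out after their values were seen, Epha4 had a wide difference between pairs, with 959, 482 and 803 in crush eyes against 842, 1162 and 605 in control eyes (−0.22, interval −1.11 to 0.66), which was 0.30 without pair 2, and its other probe sets stood at 0.26 and −0.41. Also singled out afterwards, Epha7 had 4 tested probe sets that were all below 0, at −0.26 to −0.65. The EphB receptors had 2 of 4 above 0. Ephb3, a receptor for ephrin-B ligands, had 102, 96.7 and 162 in crush eyes and 91.1, 83.0 and 87.0 in control eyes, so that the groups did not overlap, but most of the difference came from crush eye 3 and it did not pass (0.43, SE 0.20, interval −0.07 to 0.93). Without pair 3 it was 0.19. Ephb1, which is needed for the ipsilateral projection of ganglion cell axons, had 3414, 3777 and 3576 in crush eyes and 3389, 3671 and 3766 in control eyes, a difference of −0.01 with an interval of −0.35 to 0.33.

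Of the 5 ephrin-A ligands 3 were above 0 and none passed. Efna5, a repellent ligand of the visual map, had 1901, 2145 and 1973 in crush eyes and 1353, 1543 and 1955 in control eyes. Pairs 1 and 2 differed by 0.49 and 0.48 and pair 3 by 0.01 (0.33 over all, SE 0.16, interval −0.09 to 0.74), and its second probe set was also above 0 at 0.27. Efna4, another ephrin-A, was the lowest of the ligands after Ntn1, with 173, 104 and 198 in crush eyes against 207, 198 and 221 in control eyes. The groups did not overlap, though the highest crush eye and the lowest control eye were almost equal, and without pair 2 the difference of −0.45 (SE 0.20) became −0.21. Of the 3 ephrin-B ligands 2 were above 0. Efnb2 had 1229.6, 1393 and 1277 in crush eyes, which lay close together, and 1760.2, 756 and 811 in control eyes, of which control eye 1 was far above the others. Its pairs went both ways at −0.52, 0.88 and 0.65, and the log2 difference of 0.34 had an interval of −0.42 to 1.10. Without pair 1 it was 0.77 and passed an unadjusted p under 0.05 in limma, and without pair 2 it was 0.07.

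**Figure D2:**
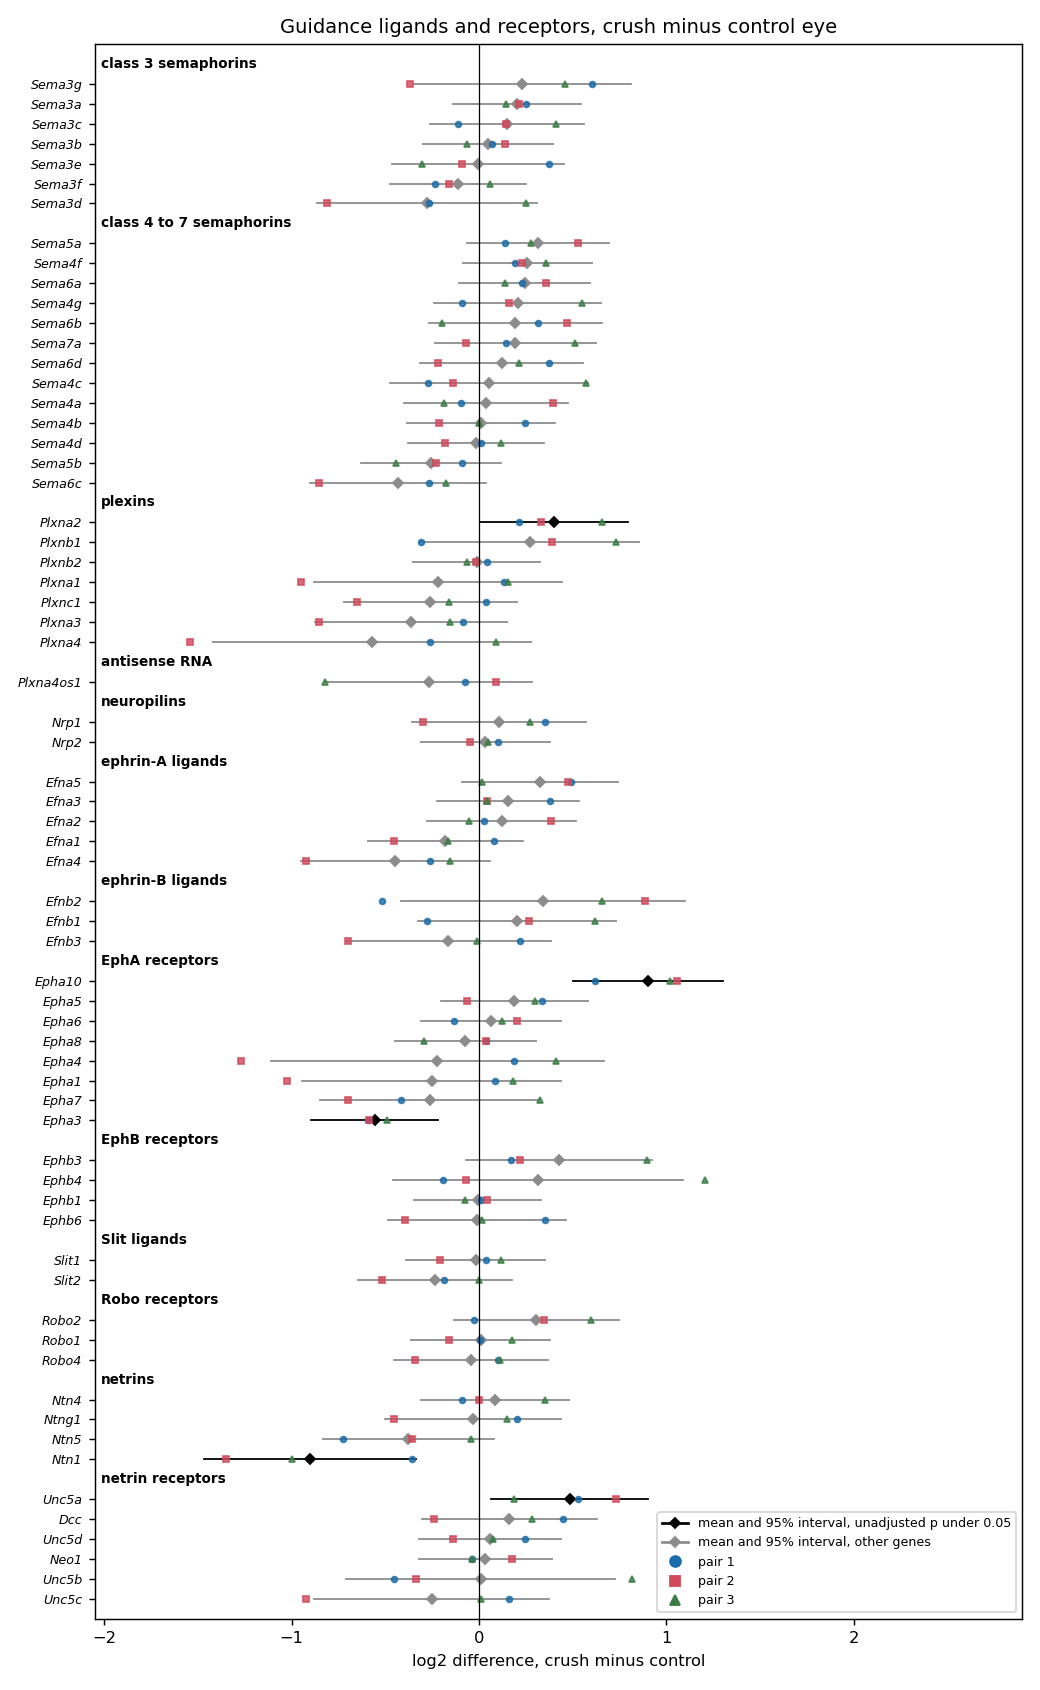
Log2 difference (crush minus control) of the 65 guidance genes by family, with the mean of the pairs as a diamond, its 95% interval from limma as a line, and pairs 1, 2 and 3 as circles, squares and triangles. Epha10, Unc5a and Plxna2 (black) have intervals above 0 and Ntn1 and Epha3 (black) below 0, and the intervals of all other genes (gray) cross 0.

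Among the semaphorins no gene passed an unadjusted p under 0.05 in the limma fit at its brightest probe set. The 7 secreted class 3 semaphorins were divided, with 4 above 0, a median of 0.05 and a range of −0.28 to 0.23. Sema3a, the first vertebrate semaphorin known to collapse growth cones, had 1389, 1521 and 1335 in crush eyes and 1166, 1312 and 1210.2 in control eyes. All crush eyes were above all control eyes, by 0.14 to 0.25 within pairs (0.20, SE 0.13, interval −0.14 to 0.54), and Sema3a was the only guidance gene higher by the paired test that the methods name, run without adjustment on the deposited intensities. A second, dim probe set of Sema3a went the other way, with 63.7, 17.1 and 33.0 in crush eyes and 74.5, 84.9 and 48.5 in control eyes (−1.03, SE 0.42). Sema3e, singled out after its values were seen, was level at its brightest probe set (−0.01, SE 0.18) while a second probe set had 2326, 918 and 2016 in crush eyes and 2719, 2547 and 2808 in control eyes (−0.73, SE 0.27, unadjusted p = 0.0412 and adjusted p = 0.642 from limma), with crush eye 2 well below the other crush eyes.

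Of the 13 transmembrane and GPI-anchored semaphorins of classes 4 to 7, 10 were above 0, with a median of 0.12. Sema5a, which inhibits the growth of ganglion cell axons, had 1104, 1417 and 1213 in crush eyes and 1003, 984 and 1002 in control eyes. The 3 control eyes were close together and every crush eye was above them (0.31, SE 0.15, interval −0.07 to 0.69), but its 3 dimmer probe sets stood at −0.17, −0.31 and 0.03. Sema6a, a ligand of A-type plexins, had 3223, 3269 and 3409 in crush eyes and 2746, 2549.8 and 3096 in control eyes, again with no overlap (0.24, SE 0.14, interval −0.11 to 0.59). Sema6c lay at the other end, with 436, 315 and 553 in crush eyes and 525, 568 and 626 in control eyes (−0.43, SE 0.19, interval −0.91 to 0.04), lower in all 3 pairs with an overlap of the groups, and it was −0.22 without pair 2. Sema4a, among the 5 brightest genes, had 2734, 3575 and 3077 in crush eyes and 2924, 2719.7 and 3498 in control eyes, a difference of 0.04 (SE 0.17), which was −0.01 with each array set to the same median.

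The plexins, the receptors of semaphorins, had 5 of 7 genes below 0, with a median of −0.22, and the pair of crush eye 2 gave most of this. By pair, the median over the 7 plexins was 0.03 for eyes 1, −0.65 for eyes 2 and 0.09 for eyes 3, while that of all genes was 0.01, −0.10 and 0.04. Plxna2, a receptor for class 3 semaphorins with neuropilins and for Sema6a, was the exception that passed. It had 1450.2, 1531 and 1762 in crush eyes and 1252, 1218 and 1119 in control eyes, with every crush eye above every control eye. The log2 difference was 0.40 (SE 0.16, interval 0.0047 to 0.79, unadjusted p = 0.0481 and adjusted p = 0.642 from limma), a ratio of 1.32, and the call was lost without any one of the 3 pairs, at 0.27 to 0.49. All 4 probe sets of Plxna2 were above 0 and higher in the crush eye of all 3 pairs. The one with the greatest difference had 672, 754 and 531 in crush eyes and 382, 477 and 359 in control eyes (0.68, SE 0.14, unadjusted p = 0.00407 and adjusted p = 0.642 from limma).

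Plxna4, a receptor that acts with neuropilin-1, had 1131, 386 and 1575 in crush eyes and 1358, 1126 and 1478 in control eyes. At the brightest probe sets it was the only guidance gene lower on crush eye 2 than on every other array by more than 1 on the log2 scale. The difference was −0.57 (SE 0.33, interval −1.42 to 0.27), and without pair 2 it was −0.09. Its second probe set had 394, 443 and 455 in crush eyes and 453, 428 and 413 in control eyes (−0.005). Dimmer probe sets of Plxnc1 (237 on crush eye 2, 831 or more elsewhere) and Sema3e (918, against 2016 or more) were lower on crush eye 2 by as much. Plxna1 was also lowest on crush eye 2, with 1239.6, 645 and 1318 in crush eyes and 1131, 1246 and 1183 in control eyes, which gave −0.22 with pair 2 and 0.14 without it. Plxna3 was chosen after its values were seen, since its groups did not overlap, and had 517, 289 and 491 in crush eyes and 548, 523 and 546 in control eyes (−0.36, SE 0.20, interval −0.88 to 0.15), which was −0.12 without pair 2. Plxnc1, the receptor of Sema7a, was also looked up afterwards for its 4 tested probe sets, which were all below 0, at −0.02 to −0.75, and had 2127, 1357 and 1879 in crush eyes and 2076, 2131 and 2105 in control eyes at the brightest (−0.26, interval −0.72 to 0.20), which was −0.06 without pair 2. The neuropilins showed little difference at their brightest probe sets. Nrp1 had 1971, 1450.1 and 1987 in crush eyes and 1545, 1786 and 1648 in control eyes (0.11, SE 0.18), although 1 of its 4 probe sets had 578, 796 and 1002 in crush eyes and 386, 407 and 459 in control eyes (0.89, SE 0.17, unadjusted p = 0.00259 and adjusted p = 0.642 from limma). Nrp2, given here after its values were seen, was at 0.03 with an interval of −0.31 to 0.38.

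**Figure D3:**
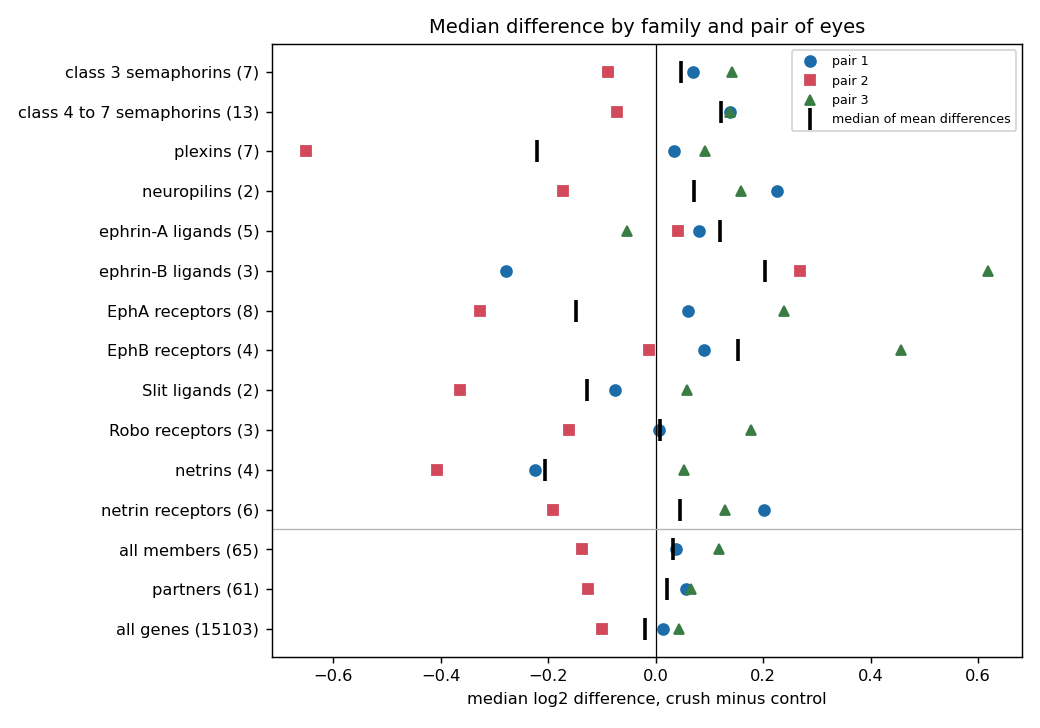
Median log2 difference (crush minus control) over the genes of each family, with the number of genes in brackets, for pairs 1, 2 and 3 (circles, squares, triangles) and for the mean of the pairs (bar). All members stands for the 65 guidance genes, and in pair 2 the plexins are at −0.65 and all genes at −0.10.

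Both Slits measured were below 0 in the paired fit at their brightest probe sets and neither passed. Slit2 had 2381, 2574 and 2268 in crush eyes and 2717, 3685 and 2271 in control eyes. Control eye 2 was the highest of the 6 eyes, and the eyes of pair 3 were level (−0.24, SE 0.16, interval −0.65 to 0.17). The other tested probe sets of Slit2 stood at 0.16 and −0.55. Slit1 had 217, 201 and 173 in crush eyes and 212, 233 and 159.6 in control eyes, a difference of −0.02 with an interval of −0.39 to 0.35, and it was 0.08 without pair 2. A dimmer probe set of Slit1 stood at 0.39 (SE 0.40). Of the Robo receptors Robo2, which guides ganglion cell axons to the optic disc and chiasm, had 153, 201 and 269.6 in crush eyes and 156, 158 and 178 in control eyes. The pairs stood at −0.03, 0.35 and 0.60 (0.31 over all, SE 0.17, interval −0.13 to 0.74). Robo1 and Robo4, the other Robo genes above the intensity limit, were at 0.01 and −0.04.

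Of the 4 netrins 3 were below 0. Ntn1, which encodes netrin-1, had 76.2, 43.5 and 59.3 in crush eyes and 97.8, 111 and 119 in control eyes. All crush eyes were below all control eyes, and the lowest was crush eye 2. The log2 difference was −0.90 (SE 0.22, interval −1.47 to −0.34, unadjusted p = 0.00881 and adjusted p = 0.642 from limma), a ratio of 0.534 with an interval of 0.361 to 0.790. It kept an unadjusted p under 0.05 without any one pair, at −0.68 to −1.18. The second probe set of Ntn1 had 56.0, 49.99 and 57.7 in crush eyes and 66.3, 45.4 and 64.8 in control eyes, so that the groups overlapped (−0.09, SE 0.15). Both probe sets were dim. Ntn4, a basement membrane netrin, had 1121, 1246 and 1088 in crush eyes and 1194, 1249 and 854 in control eyes (0.09, SE 0.16), and without pair 3 it was −0.05.

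Netrin receptors had 5 of 6 genes above 0, with a median of 0.05. Unc5a, a repulsive netrin receptor, had 136, 139 and 126 in crush eyes, which lay close together, and 93.9, 83.6 and 110.4 in control eyes. No control eye reached a crush eye (0.48, SE 0.16, interval 0.06 to 0.90, unadjusted p = 0.0309 and adjusted p = 0.642 from limma), a ratio of 1.40. The call was lost without pair 1, at 0.46, and without pair 2, at 0.36. Unc5c went the other way through crush eye 2, with 1918, 1002 and 1695 in crush eyes and 1717, 1901 and 1685 in control eyes (−0.25, SE 0.25), and stood at 0.08 without pair 2. Dcc, the attractive netrin receptor, had 1355, 1110.3 and 1315 in crush eyes and 994, 1314 and 1082 in control eyes (0.16, SE 0.18), higher in pairs 1 and 3 and lower in pair 2.

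Neo1, a receptor of netrins and of repulsive guidance molecules, showed how far the choice of probe set mattered. Its brightest probe set had 4179, 5357 and 4303 in crush eyes and 4293, 4739 and 4425 in control eyes, a difference of 0.03 (SE 0.14), which was −0.01 with each array set to the same median. Of its 4 other probe sets 1 had 214, 251 and 443 in crush eyes and 105, 105 and 177 in control eyes, with a log2 difference of 1.202 (SE 0.14, unadjusted p = 0.00031 and adjusted p = 0.642 from limma). Another had 90.3, 112 and 97.8 in crush eyes and 85.2, 72.3 and 63.4 in control eyes (0.45, SE 0.17, unadjusted p = 0.0473 and adjusted p = 0.642 from limma), and the remaining ones were at −0.25 and −0.01. In both probe sets that passed, no control eye reached the lowest crush eye. Over all 126 tested probe sets of guidance genes 10 passed an unadjusted p under 0.05, or 7.94%, against 7.68% of all probe sets tested. Among the 36 genes with at least 2 tested probe sets, 19 had all of them on the same side of 0 and 17 had them on both sides, but no gene had probe sets past an unadjusted p in opposite directions. The probe sets of Neo1 and Sema3a differed by more than 1 on the log2 scale.

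**Figure D4:**
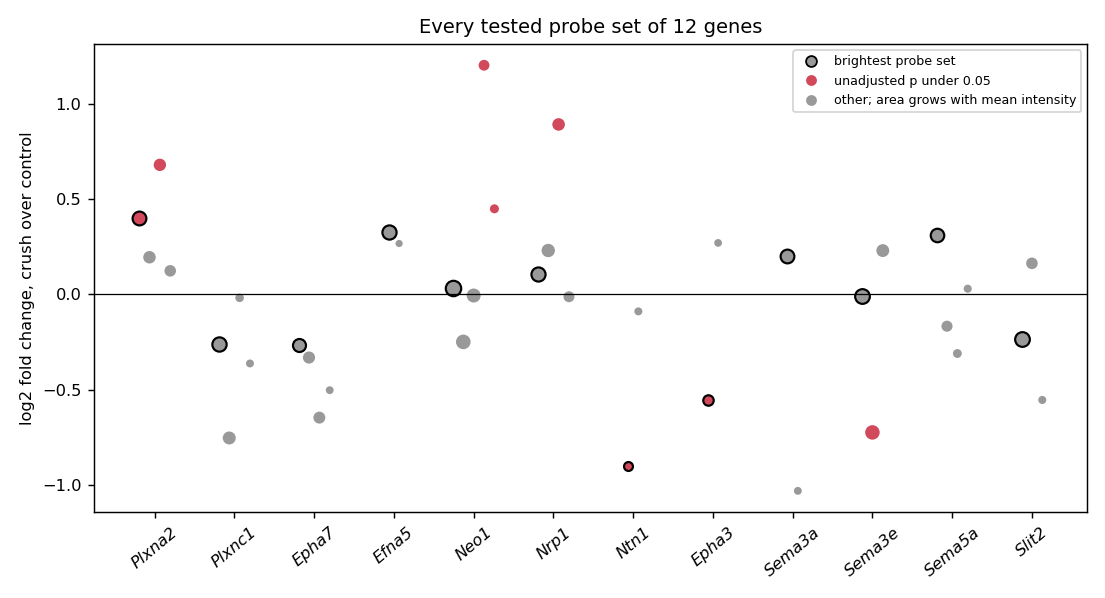
Log2 fold change (crush over control) of every tested probe set of 12 guidance genes picked after their values were seen, with the brightest probe set of a gene outlined, those past an unadjusted p under 0.05 from limma in red, and area growing with the mean intensity. The points of Plxna2 are all above 0, while those of Neo1 run between −0.25 and 1.202 and those of Sema3a between −1.03 and 0.20.

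Over the 65 genes 36 were above 0 (55.4%, against 45.7% of all genes), 20 of 34 ligands and 16 of 30 receptors, and the median difference was 0.03, against −0.02 over all genes. With each array set to the same median 30 were above 0 and the median was −0.01, against −0.06 over all genes. The pairs differed, with 39, 25 and 43 of the 65 above 0 in pairs 1, 2 and 3 (60%, 38.5% and 66.2%). Of all genes 53.1%, 38.9% and 57.2% were above 0 in these pairs, with pair 2 the lowest there too. Precision was limited by the number of arrays. The median standard error of a gene was 0.17 and the median 95% interval reached 0.44 to either side, so that 59 of the 65 genes had an interval within 1 of 0 on the log2 scale but 18 had one within 0.5. An interval that crosses 0 does not show that a gene was unaltered.

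Genes that act beside these ligands and receptors were looked at in the same way. Of a list of 68 co-receptors, other guidance ligands and intracellular effectors 61 were measured, 32 of them above 0, with a median of 0.02. At an unadjusted p under 0.05 limma called 3, or 4.92%, against 5.03% of all genes, and none passed an adjusted p. In all 3 pairs 11 of the 61 were higher and 2 lower, against 15.2% and 15.0% of all genes. The groups did not overlap for 1 that was higher and 1 that was lower, against 5.69% and 5.32% of all genes. Gpc1, a glypican that binds Slits, had 625, 766 and 667 in crush eyes and 434, 466 and 592 in control eyes, with no overlap (0.47, SE 0.16, unadjusted p = 0.0334 and adjusted p = 0.642 from limma). Mical1, an oxidoreductase that takes apart actin filaments downstream of plexins, had 149, 207 and 256 in crush eyes and 133, 134 and 158 in control eyes (0.50, SE 0.17, unadjusted p = 0.0304 and adjusted p = 0.642 from limma), and crush eye 1 lay within the control range. Dock1, an activator of Rac that acts downstream of Dcc, was lower, with 540.0, 467 and 589.5 in crush eyes and 697, 806 and 686 in control eyes (−0.46, SE 0.17, unadjusted p = 0.0403 and adjusted p = 0.642 from limma), and its groups did not overlap. All 3 calls were lost without pair 2, at 0.35 for Gpc1, 0.43 for Mical1 and −0.29 for Dock1. They were also lost without pair 1 for Gpc1 (0.44) and Dock1 (−0.50) and without pair 3 for Mical1 (0.39).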

How the data were processed

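The deposited values are linear signal intensities from Affymetrix mouse genome arrays, 1 per eye, which the authors calculated in dChip with the PM/MM model after an invariant-set normalization. On each array 1744 to 2219 values equal 1, which looks like a floor, though none is named. For the fits the lowest value allowed was 16, log2 was taken, and probe sets were kept at an average over 6 arrays of 40 or more. The 64 control probe sets were dropped, and 33169 others entered a limma fit (limma 3.58.1, R 4.3.3) that blocked on the eye number, with eBayes and a Benjamini-Hochberg adjustment over all of them. Symbols came from the annotation of the platform, which can be old. Of all probe sets 34958 had a single symbol, 932 several and 9211 none, and a probe set with several named no gene. Same-numbered eyes were taken as pairs because controls were contralateral and because the test named in the methods is paired. The residuals of these eyes correlated at 0.15, 0.13 and 0.30. Eyes of different numbers were not correlated, so these values do not show that a number marks an animal. Standard errors and p-values of limma rest on the spread between 3 pairs, which eBayes moderates toward that of all tested probe sets. They therefore do not measure the spread of a gene's own 3 pairs alone, and the number of arrays limits the precision.

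Genes named with values were those past an unadjusted p under 0.05, the 5 highest and 5 lowest differences, the 5 brightest, a list of genes known in ganglion cell axons and any gene whose probe sets past p disagreed in direction. The genes examined and all lists were chosen with earlier results of these data known. The alternatives tried concerned pairing, the floor and filter on dim probe sets, scaling, the prior, the test, how probe sets of a gene are combined and which arrays enter.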

Additional observations from a re-analysis of the deposited data

How the results depend on the processing

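No guidance gene passed an adjusted p under 0.05 in any alternative run. The number of guidance genes higher at an unadjusted p, 3 in the limma fit, was 6 with a floor of 64, 1 with each array set to the same median, 1 in the methods' t-test (Sema3a, none of the 3) and 1 without crush eye 3 and the block. The number lower, 2 in that fit, was 4 after quantile normalization, 5 with the same median, 1 in the methods' t-test and 4 without crush eye 3 and the block. It was 1 of 60 with a mean of at least 100, a limit that left out Ntn1 (mean 84.4). In both directions together, 12.3% of guidance genes passed with a floor of 64 and after quantile normalization, against 7.01% and 6.34% of all genes. The shares were 9.23% against 6.64% with the same median and 3.08% against 4.89% in the methods' t-test. Over all alternatives the share of guidance genes was 3.08% to 12.3% and that of all genes 3.29% to 7.49%. Leaving out a pair gave 2 higher and 1 to 3 lower, and the fit without the replicate block, which does not use the pairing, gave 3 and 2 as before. The number above 0 was 30 to 44 and the median difference −0.01 to 0.11, against a median of −0.06 to 0.03 over all genes. Partner genes higher, 2 in that fit, were 1 without the block, 5 with a floor of 64, 1 after quantile normalization, 1 with the same median, 0 to 2 without a pair and 1 without crush eye 2 or 3 and the block. Partner genes lower, 1 in that fit, were 0 with a floor of 64, 0 with no intensity filter, 2 with the same median, 0 in the methods' t-test, 0 to 2 without a pair and 2 without crush eye 3 and the block.

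Of 389 comparisons of a named gene with an alternative 332 kept direction and side of the threshold, 16 came to pass it, 19 no longer passed and 22 changed sign. Those that came to pass were Sema3a with a floor of 64, with no intensity filter and in the methods' t-test, Sema6a with a floor of 64, with no intensity filter and with a trended robust prior, Efna4 and Sema6c after quantile normalization, with the same median and without crush eye 3 and the block, Sema6c also with the mean of probe sets, Ephb3 after quantile normalization and without crush eye 2 and the block, and Efnb2 without pair 1. Epha10 no longer passed in the methods' t-test nor without crush eye 2 or 3 and the block, Ntn1 in the methods' t-test, Epha3 with the mean of probe sets, without pair 1 and without crush eye 3 and the block, and Unc5a and Plxna2 in the methods' t-test, with the same median and with no intensity filter, beside the pairs named above. Plxna2 also no longer passed without crush eye 3 and the block, at 0.32. None of the genes that changed sign had passed. With the mean of a gene's probe sets Epha5 was at −0.0019, Ntn4 at −0.082, Sema3a at −0.41, Sema5a at −0.034 and Slit1 at 0.19. With the same median Neo1 was at −0.012 and Sema4a at −0.0067, and after quantile normalization Ephb1 was at 0.031. Leaving out 1 pair at a time, Ephb1 ran between −0.032 and 0.026, Neo1 between −0.040 and 0.069, Nrp1 between −0.015 and 0.31, Ntn4 between −0.047 and 0.17, Plxna1 between −0.41 and 0.14, Sema4a between −0.14 and 0.15, Slit1 between −0.087 and 0.077 and Unc5c between −0.46 and 0.084. Without crush eye 2 and the block Neo1 was at −0.080, Plxna1 at 0.11, Plxna4 at 0.025, Sema4a at −0.063 and Unc5c at 0.030, and without crush eye 3 and the block Slit1 was at 0.073. The cause was not tested.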
